A study of Mus musculus with 55 samples.

Results

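The genes described here are the tubulins, actins, myosins, tropomyosins, actin crosslinkers, stathmin, vimentin, annexins and S100 genes among those the authors listed as changed in mouse liver. They were chosen by name alone, with a pattern over gene symbols, from the deposited tables of selected genes, and 48 of the 4113 listed genes matched. All 48 are in the table that sets Setd8-LKO + TCPOBOP against untreated wild type liver (3900 genes). 3 of them, Tagln2, Vill and Myo15b, are also in the table that sets WT + TCPOBOP against the same untreated livers (719 genes). The symbol pattern used no measured value, but both tables hold only genes the authors had selected on these very libraries, so that a member listed there had already passed a test. 43 members are annotated as protein coding, 4 are processed pseudogenes and 1, Anxa13, is annotated as a processed transcript.

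Total RNA of whole livers of male mice aged 45 to 50 days was sequenced. Group 1 was untreated wild type (WT, n = 5). Group 2 was wild type taken 24 h after 1 dose of 3 mg/kg TCPOBOP, an agonist of the nuclear receptor CAR that drives hepatocytes into proliferation (WT + TCPOBOP, n = 5). Group 3 was Setd8-LKO, mice with both Setd8 alleles floxed and Cre recombinase under the albumin promoter, at the same dose and time (Setd8-LKO + TCPOBOP, n = 4). Albumin-driven Cre acts in hepatocytes, and the study describes the inactivation as specific to them. Whether other cells of these livers kept the gene was not measured here. Genotype and treatment change together between Setd8-LKO + TCPOBOP and WT, and untreated Setd8-LKO was not analysed here. Setd8 is the methyltransferase that puts the first methyl group on lysine 20 of histone H4. Livers of the same WT and Setd8-LKO + TCPOBOP conditions were also used for H3K27ac, CTCF and Smc3 ChIP-seq, ATAC-seq, and Lamin A/C and H4K20me3 CUT&Tag, each deposited as 1 list of peaks or islands per group, for which 2 to 5 libraries were made. All groups compared here come from bulk liver or liver nuclei, with no sorting of cell types named.

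Actin filaments, microtubules and intermediate filaments give a cell its shape and carry its internal traffic. Actin filaments are wrapped by tropomyosins, bundled by crosslinkers and pulled by myosins, while microtubules are polymers of paired alpha and beta tubulin, which also form the mitotic spindle. Annexins bind membrane phospholipids when calcium rises, and S100 proteins are small calcium sensors, some of which pair with an annexin. In liver, vimentin and several annexins and S100 proteins are better known from bile duct, stromal and immune cells than from resting hepatocytes. The tissue was sequenced in bulk, and a change in the number of cells of a type and a change in RNA per cell cannot be told apart in these counts.

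The columns of the tables sum to between 5734065 and 12780869 raw counts per library over the genes listed for Setd8-LKO + TCPOBOP, which is not the depth because unlisted genes are absent. Kmt5a, the gene that encodes Setd8, ranged from 563 to 761 normalized counts in WT and from 1313 to 1465 in libraries that carry the Setd8-LKO label. A count over the whole gene includes exons outside the floxed one and therefore checks nothing about the deletion, and groups are named by their labels. 9 of the 12 hepatocyte markers were listed, and their summed normalized counts ran from 1342652 to 2163719 in WT and from 689171 to 941901 in Setd8-LKO + TCPOBOP. Among the 35 members that rose, the lowest of the 4 Setd8-LKO + TCPOBOP livers was replicate 3 in 26 (74.3%), and in 52.9% of all 1881 listed genes that rose. That liver also had the lowest sum of cholangiocyte markers and of stellate and fibroblast markers. The counts and the genes it touched most are given with and without it.

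Promoter sequence is shown where a short element was searched for in the members. For 35 of the 48 members the RefSeq table for build GRCm38.p6 held a promoter of 300 bases, from 250 before to 50 after a start. The elements were the CArG box, which binds serum response factor at many actin genes, the letters TATAAA of the TATA box, and the letters CCAAT, each on both strands. A CArG box was present in 5 of 37 member promoters (13.5%), those of Acta1, Actg1, Anxa5, Myo1e and Vil1, and in 1.63% of all 32817 promoters of the table. TATAAA was present in 21.6% of member promoters and 13.6% of all, and CCAAT in 35.1% and 37.4%. A match describes letters only, and no share was tested. The 150 bases before the start follow, read 5′ to 3′ on the strand of the gene, with each of these elements in capitals. The first set holds the CArG box promoters whose box lies before the start.
Acta1 (chr8:123894776-123894925, minus strand): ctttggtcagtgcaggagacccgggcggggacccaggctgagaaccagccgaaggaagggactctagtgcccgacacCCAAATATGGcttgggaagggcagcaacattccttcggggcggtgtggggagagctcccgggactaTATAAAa
Actg1 (chr11:120348496-120348645, minus strand): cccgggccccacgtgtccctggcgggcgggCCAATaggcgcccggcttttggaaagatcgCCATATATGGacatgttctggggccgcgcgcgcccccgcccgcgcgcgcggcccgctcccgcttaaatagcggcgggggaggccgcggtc
Vil1 (chr1:74409234-74409383, plus strand): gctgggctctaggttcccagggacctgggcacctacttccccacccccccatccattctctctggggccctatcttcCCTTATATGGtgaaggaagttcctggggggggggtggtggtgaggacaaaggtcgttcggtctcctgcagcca
Myo1e (chr9:70207200-70207349, plus strand): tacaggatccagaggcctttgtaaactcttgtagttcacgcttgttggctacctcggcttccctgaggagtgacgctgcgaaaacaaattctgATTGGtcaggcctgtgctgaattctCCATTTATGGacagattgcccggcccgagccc

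Of these 4 genes Actg1 and Vil1 rose, Myo1e fell and Acta1 did not pass the test, as given below. The promoters of the most abundant beta tubulin members, Tubb4b and Tubb2a, of Vim and of Anxa2 are shown as members that rose. Tubb4b carried CCAAT 5 times in its 250 upstream bases, of which 3 lie in the stretch printed.
Tubb4b (chr2:25224703-25224852, minus strand): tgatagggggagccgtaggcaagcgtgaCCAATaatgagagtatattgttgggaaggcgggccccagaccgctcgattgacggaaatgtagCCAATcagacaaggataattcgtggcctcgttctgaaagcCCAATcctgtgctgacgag
Tubb2a (chr13:34078009-34078158, minus strand): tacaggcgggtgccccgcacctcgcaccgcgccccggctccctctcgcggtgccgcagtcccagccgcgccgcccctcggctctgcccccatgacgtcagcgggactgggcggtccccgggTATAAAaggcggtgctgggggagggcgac
Vim (chr2:13574161-13574310, plus strand): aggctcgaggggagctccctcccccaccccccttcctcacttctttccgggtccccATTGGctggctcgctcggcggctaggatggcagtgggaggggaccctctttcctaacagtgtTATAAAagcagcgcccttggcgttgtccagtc
Anxa2 (chr9:69453533-69453682, plus strand): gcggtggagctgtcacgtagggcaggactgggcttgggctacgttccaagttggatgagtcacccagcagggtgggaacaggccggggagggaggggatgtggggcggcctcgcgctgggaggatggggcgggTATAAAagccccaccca

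S100a1 and S100a13 are the only S100 members that fell. They lie head to head on chromosome 3, and their RefSeq starts are 105 bp apart, so that the stretch before the start of S100a13 contains the start of S100a1 on the other strand. None of the 3 elements was found in it.
S100a13 (chr3:90514285-90514434, plus strand): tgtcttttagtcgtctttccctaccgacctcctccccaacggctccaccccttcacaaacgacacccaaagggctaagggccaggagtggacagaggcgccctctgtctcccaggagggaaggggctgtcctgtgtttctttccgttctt

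The first question was which of these genes differed between Setd8-LKO + TCPOBOP and WT. 46 of the 48 members had enough counts to be tested, and 39 changed, 35 of them up and 4 down (edgeR quasi-likelihood test on raw counts, with adjusted p below 0.05 and a fitted log2 change of 1 or more either way). That is 84.8% of those tested, beside 85.1% of all 3726 listed genes tested, so the share that changed was that of the table as a whole. The share that rose was 76.1% of members and 50.5% of all tested genes. The members' median log2 fold change was 1.52, and that of all tested genes 1.16. The 2 groups of livers did not overlap for 38 members (79.2%), beside 84.8% of all 3900 listed genes. Without Setd8-LKO replicate 3, 41 members changed, 37 up and 4 down. The counts depend on how libraries are scaled. TMM factors over the listed genes gave 36 members up and 4 down. The members' median was then 1.53 and that of all tested genes 1.16, near the values with the authors' factors. TMM and DESeq2 factors are both estimated here on genes selected as changed. The authors' own factors, used here, put the median of all tested genes at 1.16 with 1881 genes up and 1289 down, and DESeq2 size factors estimated over the listed genes put it at 0.30 with 766 up and 1464 down. With those factors 15 members rose and 4 fell, the members' median was 0.70, and no member changed sign. All 3 conventional myosins lost the call (Myh10 0.48, Myh14 0.20, Myl12b 0.19), as did Vim, Ezr and both actins that had risen. The tubulins called went from 10 to 4, namely Tubb2a, Tubb2b, Tubb2a-ps2 and Tubb6, and the annexins from 3 to 2, without Anxa5. The crosslinkers went from 3 to 2, the tropomyosins from 2 to 1, the unconventional myosins that rose from 6 to 3 and the S100 genes that rose from 2 to 1. The column headers mark each library as run A or run B and do not say what a run was. Run A held 3 WT livers and 1 Setd8-LKO liver, and run B held 2 WT livers and 3 Setd8-LKO livers. With run as a term 39 members changed. The log2 ratio of group means within run A and run B was 3.01 and 3.35 for Tagln2, 3.28 and 3.57 for Anxa2, 3.64 and 4.34 for S100a11, 1.82 and 1.79 for Tubb4b, 1.23 and 2.29 for Vim, and 1.34 and 3.05 for Tuba8. The direction was the same in both runs for each of these 6 genes.

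**Figure D1:**
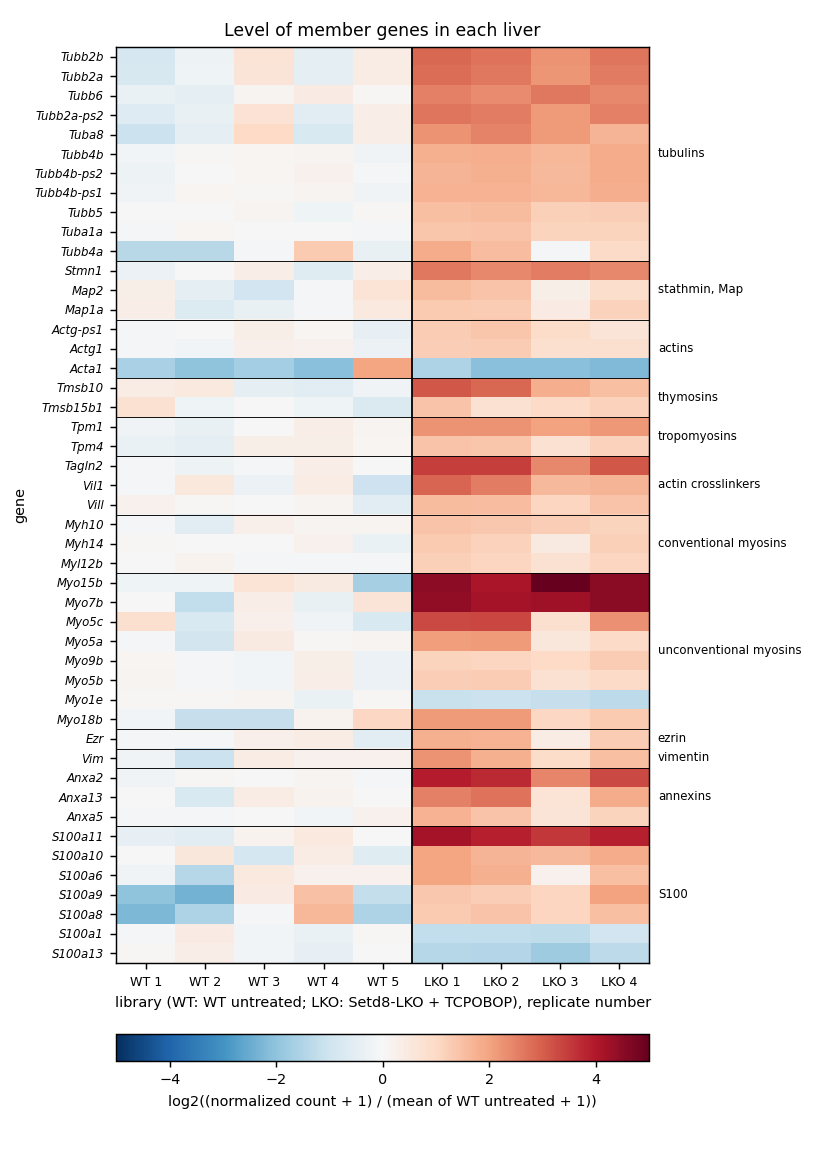
Each row is 1 member gene, grouped by class, and each column 1 liver. The colour is log2 of the normalized count plus 1 over the WT mean plus 1, with red higher and blue lower than WT. Most rows turn red in all 4 Setd8-LKO + TCPOBOP livers, with replicate 3 often paler, and Myo1e, S100a1 and S100a13 turn blue. Acta1 is blue in every liver but WT replicate 5.

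Tubulins were the most numerous class, and all 10 tested of the 11 listed rose. Tubb2a, a beta tubulin, had 873, 1297, 2384, 1080 and 1950 normalized counts in the 5 WT livers and 10518, 9437, 6975 and 9165 in the 4 Setd8-LKO + TCPOBOP livers. Every treated liver was above every WT liver, by 5.95 times on average. The fitted log2 fold change was 2.57 (SE 0.30, adjusted p = 0.000228). Tubb4b, another beta tubulin, had the highest tubulin mean in WT, with 1895 to 2345 normalized counts there and 6787 to 7645 in Setd8-LKO + TCPOBOP. Its spread was small in both groups (2125 ± 206, SD, n = 5, and 7265 ± 363, SD, n = 4), and its log2 fold change was 1.77 (SE 0.14, adjusted p = 2.15e-05). Tubb6, a beta tubulin of broad tissue distribution, rose by 2.50 on the log2 scale (SE 0.19, adjusted p = 2.17e-05), from 145 to 273 normalized counts to 1069 to 1298. Tubb5, a widely expressed beta tubulin, rose by 1.40 (SE 0.15, adjusted p = 0.000118). Tuba1a was the listed alpha tubulin with the higher level, at 1122 to 1304 normalized counts in WT and 2577 to 3238 in Setd8-LKO + TCPOBOP. Its log2 fold change of 1.27 (SE 0.13, adjusted p = 0.000133) was the smallest of the tubulins. The other, Tuba8, varied more between WT livers, from 56 to 236 normalized counts, and rose to 385 to 663 (log2 fold change 2.17, SE 0.39, adjusted p = 0.00461). Tubb4a, known as a brain beta tubulin, was too low to be tested, with 1 to 12 normalized counts in WT and 4 to 18 in Setd8-LKO + TCPOBOP. Tuba1b and Tuba1c were not among the listed genes and were not analysed here.

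Several of these tubulins share long stretches of sequence with close copies. Of the distinct 50-base words in the transcripts of Tubb2a, 49.6% also occur in transcripts of other genes, first of all Tubb2b and the pseudogene Tubb2a-ps2. In Tubb2b, whose gene lies 48740 bp from Tubb2a on chromosome 13, the share was 36.9%. The normalized count of Tubb2b over that of Tubb2a stayed between 0.400 and 0.445 in the 9 livers, while Tubb2a itself moved from 873 to 10518. Likewise Tubb4b-ps1 over Tubb4b stayed between 0.401 and 0.426. For Tuba1a 72.9% of the words were shared, with Tuba1c and Tuba1b among others. Read assignment between such copies is therefore uncertain, and the Tubb2a, Tubb2b and Tubb2a-ps2 values, like those of Tubb4b and its 2 pseudogenes, are not independent of each other. In addition, the exons of 10 members overlap a gene on the other strand, Tuba8 by 368 bp, Map1a by 272, Myo18b by 248, Tpm4 by 134, Tubb4b by 121, Myo9b by 116, Map2 by 65, Vil1 by 49, Myo15b by 9 and Ezr by 4, and whether the counting used strand is not given in the sources used here.

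Stmn1 encodes stathmin, which binds tubulin dimers and promotes the shrinking of microtubules. It had 92, 115, 142, 73 and 140 normalized counts in WT and 701, 597, 667 and 596 in Setd8-LKO + TCPOBOP. The 4 treated livers lay close together and far above WT, 5.70 times on average (log2 fold change 2.51, SE 0.21, adjusted p = 3.18e-05). 18.9% of its 50-base words are shared with the gene models Gm11223 and Gm23634. The microtubule-associated proteins Map1a and Map2, best known from neurons, did not pass the test and were low. Map1a had 8 to 19 normalized counts in WT and 18 to 35 in Setd8-LKO + TCPOBOP (log2 fold change 1.12, SE 0.32, adjusted p = 0.0821), and Map2 had 10 to 33 and 25 to 63 (1.16, SE 0.38, adjusted p = 0.187). Without Setd8-LKO replicate 3 Map1a passed (adjusted p = 0.026).

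Among the actins, Actg1, which encodes cytoplasmic gamma actin, had 2053 to 2986 normalized counts in WT and 4353 to 6051 in Setd8-LKO + TCPOBOP. The groups did not overlap, and the log2 fold change was 1.04 (SE 0.18, adjusted p = 0.00373), so near to the fold threshold of 1 that the call was lost without WT replicate 5, Setd8-LKO replicate 1 or Setd8-LKO replicate 2, with values down to 0.95. Its pseudogene Actg-ps1 moved in a nearly fixed ratio to it, between 0.099 and 0.122, lost its call without WT replicate 5 or Setd8-LKO replicate 2, and shares 60.8% of its 50-base words with other genes. Acta1, the actin of skeletal muscle, had 249 normalized counts in WT replicate 5 and 14 to 20 in the other 4 WT livers, against 13 to 21 in Setd8-LKO + TCPOBOP. Apart from that 1 liver the groups cover the same range, and it did not pass the test (adjusted p = 0.758). The other 4 skeletal muscle markers looked for, Ckm, Myh4, Tnnt3 and Des, were not among the listed genes. Actb, the second cytoplasmic actin, was not listed either.

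Tmsb10, a thymosin that holds actin monomers, rose from 40 to 83 normalized counts in WT to 518, 435, 210 and 169 in Setd8-LKO + TCPOBOP. The 2 groups did not overlap, although the treated livers spread widely, and the log2 fold change was 2.50 (SE 0.37, adjusted p = 0.00125). Tmsb15b1 had 4 to 13 and 13 to 21 normalized counts and did not pass the test (log2 fold change 1.15, adjusted p = 0.0829), but did without WT replicate 1 (0.0212).

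Both listed tropomyosins, which wrap around actin filaments, rose. Tpm1 had 541, 481, 607, 775 and 676 normalized counts in WT and 2942, 2959, 2503 and 2773 in Setd8-LKO + TCPOBOP, without overlap and with a narrow spread in the treated group (log2 fold change 2.18, SE 0.16, adjusted p = 1.81e-05). Tpm4 rose by 1.21 (SE 0.21, adjusted p = 0.00365), from 309 to 534 normalized counts to 746 to 1175.

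The 3 listed actin crosslinkers all rose. Tagln2 encodes transgelin 2, an actin-binding protein of many non-muscle cells. It had 215, 192, 219, 284 and 226 normalized counts in WT and 2539, 2506, 1192 and 1964 in Setd8-LKO + TCPOBOP. The 4 treated livers were on average 9.02 times above WT, and replicate 3 was the lowest of them (log2 fold change 3.17, SE 0.23, adjusted p = 1.57e-05). Vil1, villin of the microvilli of epithelia, was low, with 2 to 8 normalized counts in WT and 18 to 46 in Setd8-LKO + TCPOBOP (log2 fold change 2.48, SE 0.41, adjusted p = 0.00277). Vill, a villin-like gene, rose from 17 to 29 to 53 to 77 (1.46, SE 0.23, adjusted p = 0.00191).

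All 3 conventional myosin genes rose, though none with DESeq2 size factors, as given above. Myh10, a heavy chain of non-muscle myosin II, changed by 1.29 (SE 0.17, adjusted p = 0.000662), from 306 to 532 normalized counts to 965 to 1215. Myh14, another such heavy chain, changed by 1.06 (SE 0.19, adjusted p = 0.00519), and Myl12b, a regulatory light chain, by 1.03 (SE 0.14, adjusted p = 0.000539). Both are near the fold threshold. The call for Myh14 was lost without WT replicate 5 or Setd8-LKO replicate 1, at 0.95 to 1.22 over the fits without 1 library, and that for Myl12b without Setd8-LKO replicate 1, at 0.98.

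The unconventional myosins, the members with Myo symbols, went both ways, with 6 of 8 tested members up and 2 down. Myo15b had the largest rise of all members, from 10, 10, 19, 16 and 3 normalized counts in WT to 275, 211, 486 and 285 in Setd8-LKO + TCPOBOP. The mean was 27.1 times that of WT, and replicate 3 was here the highest treated liver (log2 fold change 4.74, SE 0.41, adjusted p = 3.97e-05). Myo7b, a myosin of microvilli, came next, with 5 to 21 normalized counts in WT and 254 to 324 in Setd8-LKO + TCPOBOP (4.42, SE 0.32, adjusted p = 1.36e-05). The class V myosins Myo5a, Myo5b and Myo5c, carriers of vesicles, changed by 1.64 (SE 0.40), 1.07 (SE 0.17) and 2.90 (SE 0.57). Myo5a and Myo5c are neighbours on chromosome 9, 8331 bp apart. Myo5c ran from 3 to 11 normalized counts in WT and had 66, 68, 11 and 32 in Setd8-LKO + TCPOBOP, so that replicate 3 was level with the highest WT liver. The call for Myo5a (adjusted p = 0.0322) was held in 3 of the 9 fits that leave out 1 liver, and lost without WT replicate 1, 2, 4 or 5 or Setd8-LKO replicate 1 or 2. Myo9b changed by 1.12 (SE 0.15, adjusted p = 0.000549).

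Myo1e, a class I myosin that links actin to membranes, fell. It had 1209, 1226, 1276, 937 and 1216 normalized counts in WT and 539, 561, 530 and 472 in Setd8-LKO + TCPOBOP, a log2 fold change of -1.16 (SE 0.14, adjusted p = 0.000321). The groups did not overlap, and the mean went from 1173 to 526. Myo18b, a muscle myosin, was too low for the test, at 1 to 8 and 8 to 18 normalized counts.

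Ezr encodes ezrin, which ties actin filaments to the plasma membrane. It had 105, 106, 135, 145 and 76 normalized counts in WT and 392, 383, 148 and 273 in Setd8-LKO + TCPOBOP. Replicate 3 was only just above the highest WT liver, and the log2 fold change was 1.39 (SE 0.30, adjusted p = 0.0137). Without Setd8-LKO replicate 1 or 2 it did not pass, with an adjusted p of up to 0.0557. Vim, vimentin of the intermediate filaments of mesenchymal cells, had 338, 182, 499, 443 and 448 normalized counts in WT and 1809, 1300, 716 and 1089 in Setd8-LKO + TCPOBOP, again without overlap (1.68, SE 0.32, adjusted p = 0.00629). Msn, the relative of ezrin in leukocytes and endothelium, was not among the listed genes.

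All 3 annexins rose. Anxa2 had 146, 173, 167, 185 and 159 normalized counts in WT, a narrow spread, and 2560, 2242, 913 and 1659 in Setd8-LKO + TCPOBOP. That is 11.1 times on average, with replicate 3 at the bottom (log2 fold change 3.47, SE 0.27, adjusted p = 2.17e-05). Anxa5, the annexin used to stain dying cells because it binds phosphatidylserine, was the most abundant, at 1147 to 1499 normalized counts in WT and 2000 to 4301 in Setd8-LKO + TCPOBOP (1.29, SE 0.21, adjusted p = 0.00238). Anxa13, an annexin of epithelia, rose from 10 to 23 normalized counts to 108, 121, 29 and 67 (2.19, SE 0.40, adjusted p = 0.00538).

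The 7 S100 genes all lie on chromosome 3 and did not move together, since 2 rose, 2 fell and 3 did not pass the test. S100a11 had 46, 43, 70, 86 and 63 normalized counts in WT and 1118, 928, 721 and 923 in Setd8-LKO + TCPOBOP, 15.0 times on average and the third largest fold change of the members (log2 fold change 3.90, SE 0.24, adjusted p = 6.32e-06). 41.1% of its 50-base words occur in other gene models, such as the one named Gm12854. S100a10, whose protein forms a complex with annexin A2, was far more abundant in WT, with 915, 1340, 485, 1162 and 591 normalized counts, and rose to 3570, 2929, 2743 and 3274 (1.80, SE 0.28, adjusted p = 0.00187). S100a10 and S100a11 are neighbours, 28792 bp apart. S100a1, a calcium sensor best known from heart muscle, had 1007, 1424, 991, 846 and 1126 normalized counts in WT and 456, 462, 441 and 552 in Setd8-LKO + TCPOBOP, a log2 fold change of -1.17 (SE 0.17, adjusted p = 0.00116). S100a13, its head-to-head neighbour, had 180 to 306 and 70 to 97, a log2 fold change of -1.49 (SE 0.20, adjusted p = 0.000607). Both were lower in every treated liver than in any WT liver.

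S100a8 and S100a9, which together form calprotectin and the main cytosolic proteins of neutrophils, differed more within WT than between groups. S100a8 had 2, 4, 13, 44 and 4 normalized counts in WT and 35, 38, 29 and 40 in Setd8-LKO + TCPOBOP. S100a9 had 4, 3, 26, 56 and 8, against 51, 47, 42 and 81. WT replicate 4 was as high as the treated livers for both genes, and neither passed the test (adjusted p = 1.00 and 0.735). Without that liver both did, at 0.00748 and 0.0402. The other 8 neutrophil markers looked for were not among the listed genes. S100a6 had 16, 6, 26, 21 and 21 normalized counts in WT and 73, 64, 21 and 53 in Setd8-LKO + TCPOBOP. It did not pass (adjusted p = 0.0645), and did so without Setd8-LKO replicate 3 (0.00859). S100a4 was not listed.

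**Figure D2:**
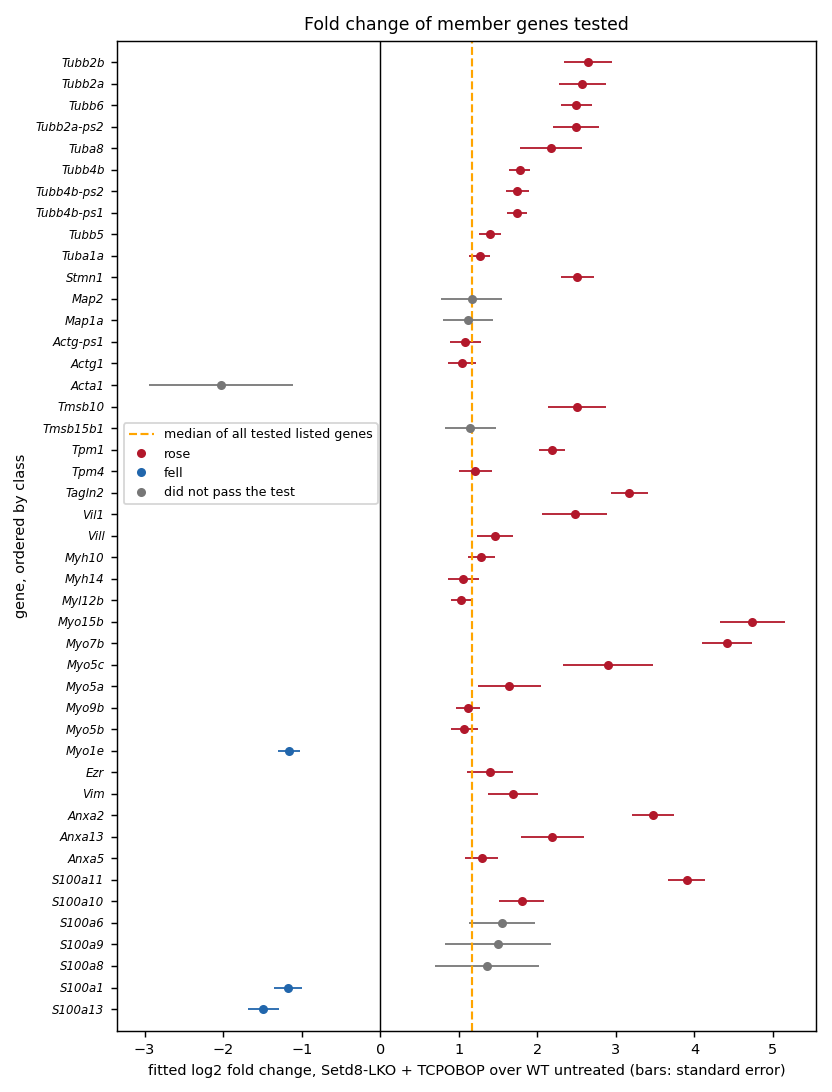
Points give the fitted log2 fold change of members tested, Setd8-LKO + TCPOBOP over WT, ordered by class, and bars the standard error. The dashed line is the median of all tested listed genes at 1.16. Tubulins, annexins and crosslinkers lie to the right of that line, conventional myosins around it, and Myo1e, S100a1 and S100a13, which fell, lie left of 0.

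Levels can be compared between genes per kilobase of exon. In WT, the highest members on this scale were S100a1 with 1554 normalized counts per kb, Tubb4b with 1330, Actg1 with 1291 and S100a10 with 1120. In Setd8-LKO + TCPOBOP the order was Tubb2a with 5605, Tubb4b with 4546, S100a10 with 3902 and Actg1 with 2649, and S100a1 stood at 688. Per kb, Anxa2 went from 115 to 1274, Tagln2 from 138 to 1243 and S100a11 from 121 to 1805. The 2 genes with the largest folds, Myo15b and Myo7b, remained low, at 32.6 and 43.6 normalized counts per kb in Setd8-LKO + TCPOBOP. The tubulin and actin values share the uncertainty of near-identical copies given above.

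The second question was what TCPOBOP did in wild type liver. Only 3 members are listed there, and 2 of them changed, both up, beside 67.6% of the 679 listed genes tested. Tagln2 had 575, 398, 651, 408 and 407 normalized counts in WT + TCPOBOP, above the WT range of 192 to 284 (log2 fold change 1.10, SE 0.20, adjusted p = 0.0272). Vill had 73, 49, 74, 43 and 51, above the WT range of 17 to 29 (1.24, SE 0.24, adjusted p = 0.042). An exact two-sided permutation test gave p = 0.00794 for each, the smallest value that 5 against 5 libraries allow. Myo15b had 41, 48, 85, 17 and 62 normalized counts, and replicate 4 fell within the WT range of 3 to 19. It did not pass (2.1, SE 0.47, adjusted p = 0.102), but did without WT + TCPOBOP replicate 4 (0.0326). The call for Tagln2 held in 4 of the 10 fits that leave out 1 library and that for Vill in 1 of them. Without WT replicate 1, 2, 3 or 5, or WT + TCPOBOP replicate 1 or 3, 0 members passed. The calls also rest on the scaling. With the authors' factors the median of all tested genes was 1.34, with 349 up and 110 down, and with TMM factors over the listed genes it was 0.08, with 61 up and 198 down. Under TMM Tagln2 stood at -0.16 and Vill at -0.023, and neither passed. With run as a term Tagln2 passed and Vill did not (adjusted p = 0.015 and 0.0555). Of the marker genes, the stellate cell gene Lrat fell in WT + TCPOBOP, and of the 2 hepatocyte markers listed there Cyp3a11 rose and Ass1 fell.

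The third question was how the 2 treated groups differ, which can be asked only of the 506 genes in both tables. Their untreated counts were identical, so all 14 libraries were fitted together. Of the 506 genes, 24.9% differed between Setd8-LKO + TCPOBOP and WT + TCPOBOP, and 9.09% were higher in the former. Of the 3 members, 2 were higher. Tagln2 was 4.20 times higher in Setd8-LKO + TCPOBOP than in WT + TCPOBOP, with no overlap (log2 difference 2.07, SE 0.24, adjusted p = 0.000413). Myo15b was 6.21 times higher (2.64, SE 0.43, adjusted p = 0.0109). Without WT + TCPOBOP replicate 1 its adjusted p was 0.0548. Vill had 53 to 77 normalized counts in Setd8-LKO + TCPOBOP and 43 to 74 in WT + TCPOBOP, and its log2 difference of 0.22 (SE 0.24) did not pass (adjusted p = 1.00). Both comparisons use the same WT libraries, and for the 45 members not listed for WT + TCPOBOP no value in that group was analysed here.

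**Figure D3:**
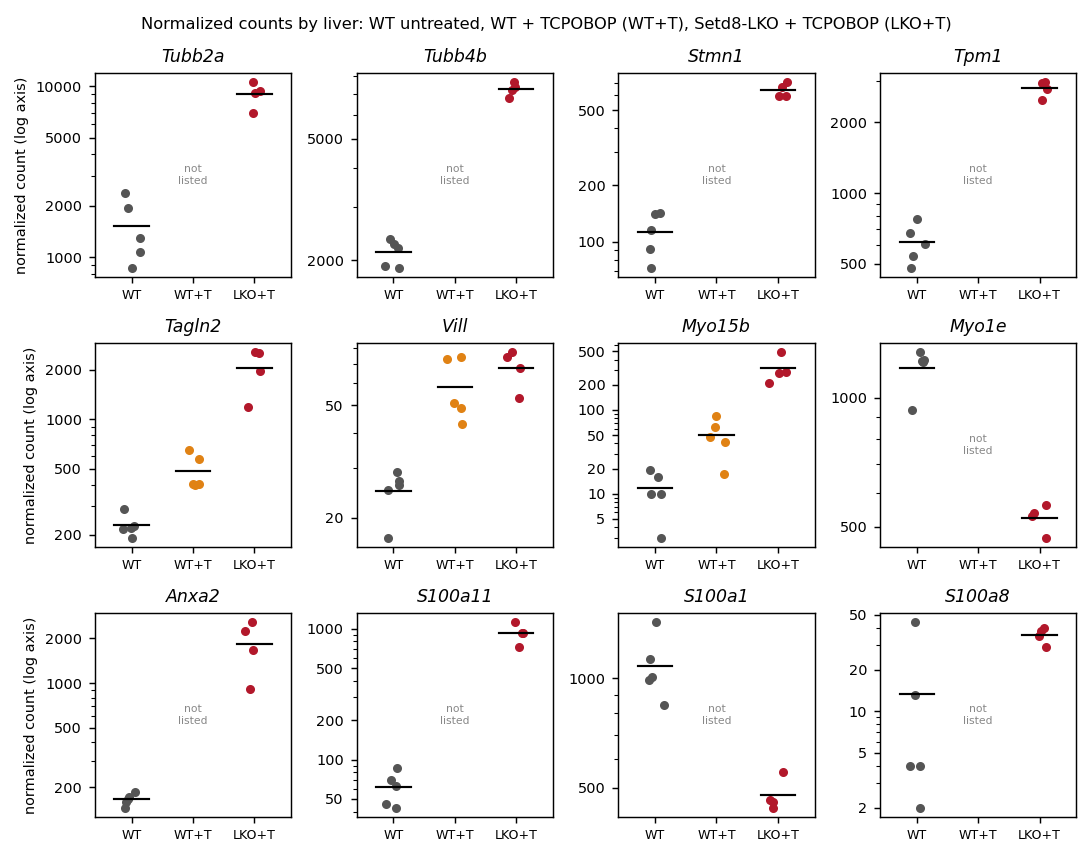
Normalized counts of 12 members on log axes, with 1 point per liver and a line at the group mean, for WT, WT + TCPOBOP (WT+T) and Setd8-LKO + TCPOBOP (LKO+T). Tagln2 and Myo15b have their highest livers in Setd8-LKO + TCPOBOP, Vill is alike in both treated groups, Myo1e and S100a1 fall, and 1 WT liver reaches the treated level of S100a8.

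The members differed in how far Setd8-LKO replicate 3 fell below the other 3 livers of its group. Its count over the mean of the other 3 had a median of 0.764 over the 35 members that rose and of 0.807 over all 1881 listed genes that rose. It was lowest for Myo5c at 0.199, Anxa13 at 0.294, Myo5a at 0.411, Anxa2 and Ezr at 0.424, Tagln2 at 0.510 and Vim at 0.512. The 10 tubulins had a median of 0.883, Stmn1 stood at 1.06, Tubb6 at 1.16 and Myo15b at 1.89. Without replicate 3 the fitted log2 fold change was 3.22 for Myo5c, 2.47 for Anxa13, 1.87 for Myo5a and 3.70 for Anxa2. It was 1.62 for Ezr, 3.36 for Tagln2 and 1.87 for Vim. These 7 were named for a low replicate 3, so that larger values without it follow from the choice. All 7 passed both with and without it. Without replicate 3 the median over members was 1.62, and 3 annexins and 10 tubulins rose. Marker genes of other liver cells were read beside this. Of 9 cholangiocyte markers 7 were listed and 5 of the 6 tested rose, beside 50.5% of all tested listed genes. Their summed normalized counts were 429 to 701 in WT and 7546, 6083, 1644 and 3921 in Setd8-LKO + TCPOBOP. Replicate 3 was thus at 0.281 of the mean of the others. Most of this sum was Spp1, at 261 to 514 in WT and 6634, 5109, 1259 and 3329 in Setd8-LKO + TCPOBOP. The ratio is therefore largely that of 1 gene. The other listed cholangiocyte markers were each lowest in replicate 3 as well. Of 11 stellate and fibroblast markers 7 were listed and all 7 rose, again beside 50.5% of all tested listed genes. Their sums were 2415 to 3635 in WT and 16074, 14416, 6673 and 8826 in Setd8-LKO + TCPOBOP, replicate 3 being at 0.509. For the 9 listed hepatocyte markers, of which 7 fell and 1 rose, replicate 3 was at 1.06. This sum mixes genes that went different ways in replicate 3. Cyp3a11, which rose, had 181782, 197699, 256947 and 236705 normalized counts in Setd8-LKO + TCPOBOP, highest in replicate 3. Alb, which fell, had 350296, 321973, 302416 and 437673, lowest in replicate 3. Only 2 of 15 leukocyte markers were listed, of which Itgax rose and the other did not pass, and Ptprc, Cd68 and Adgre1 were not listed. Smtn, the 1 listed of 6 smooth muscle markers, and Vwf, the 1 listed of 9 endothelial markers, rose, and replicate 3 was at 0.973 and 0.674 of the other 3 livers. Krt19, the 1 listed of 3 mesothelial markers and also a cholangiocyte marker, did not pass. S100a8 and S100a9, the 2 listed of 10 neutrophil markers, are themselves members, as is Acta1, the 1 listed of 5 skeletal muscle markers. The part of these cell types in the members' changes was not tested.

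**Figure D4:**
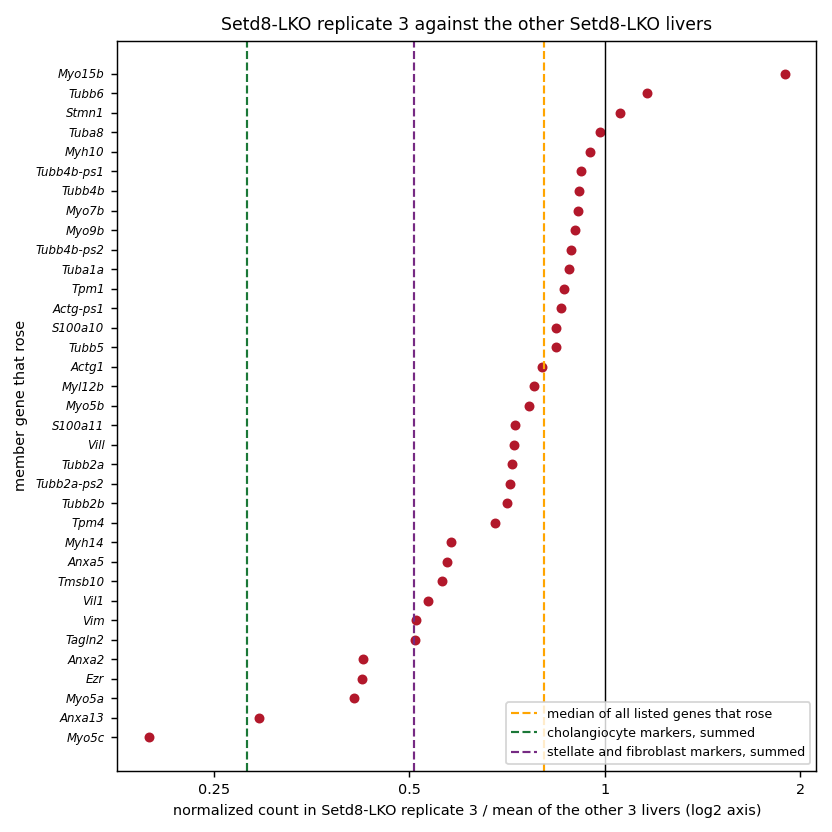
Each point is 1 of the 35 members that rose, placed by its normalized count in Setd8-LKO replicate 3 over the mean of the other 3 Setd8-LKO livers on a log2 axis. Dashed lines give the same ratio for the median of all listed genes that rose (0.807) and for the stellate and fibroblast marker sum (0.509). A further dashed line gives it for the cholangiocyte marker sum (0.281), most of which is Spp1. Anxa13, Ezr, Anxa2, Tagln2 and Vim lie low, and Tubb6, Stmn1 and Myo15b lie above 1.

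Other genes of the actin and microtubule systems were read from lists. Of 73 regulators of actin outside the symbol pattern, 16 were listed for Setd8-LKO + TCPOBOP, and all 16 rose, beside 50.5% of all tested genes. With DESeq2 size factors over the listed genes 9 rose, beside 766 of all 3608 genes tested with them. Iqgap3, a scaffold found in dividing cells, rose by 5.19 on the log2 scale, from 5 to 14 normalized counts to 338 to 417. Ect2 and Anln, which act in the contractile ring of cytokinesis, rose by 4.24 and 3.61. Pls1, a plastin of microvilli, rose by 4.30 and had 101 normalized counts in Setd8-LKO replicate 3, against 337 to 449 in the others. Rhob, a small GTPase, rose by 2.29, from 378 to 484 normalized counts to 1846 to 2404. In WT + TCPOBOP 2 of the 73 were listed. Ect2 rose there by 2.32, and Iqgap3, at 11 to 52 normalized counts, did not pass.

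Of 49 microtubule genes outside the pattern 7 were listed, and 5 rose and 1 fell among the 6 tested. Of all tested listed genes 50.5% rose and 34.6% fell. Kif5c, a kinesin heavy chain, rose by 4.93, from 1 to 5 normalized counts to 40 to 99, and Kif1b, another kinesin, fell by 1.03 on the log2 scale, from 2730 to 3330 to 1355 to 1526. Katna1, a subunit of the microtubule-severing katanin, was the 1 gene listed for WT + TCPOBOP, where it rose by 1.02. Of 14 genes that tie the lamina to the cytoskeleton 2 were listed. Lmna, lamin A/C, rose by 1.25, from 673 to 989 normalized counts to 1681 to 2163. Syne4, a linker of the nuclear envelope to kinesin, did not pass and had 161 normalized counts in 1 WT liver, against 15 to 54 in the other 4. Sun2 was not listed.

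The chromatin lists were then read at the starts of these genes, taking a peak within 1000 bp of a GENCODE transcript start. There is 1 list per group, so there is no replicate error and no test, and list sizes differ between groups. H3K27ac, a mark of active promoters and enhancers, was found at 29 of 48 members in WT (60.4%) and 31 in Setd8-LKO + TCPOBOP (64.6%), beside 59.3% and 62.6% of all 4101 listed genes with a start. All 29 had it in both, and Map1a and Map2 had it in Setd8-LKO + TCPOBOP alone. All 25 rising members with the mark had it in both lists, as did the 4 that fell. The fold enrichment of the strongest peak went from 29.8 in WT to 46.2 in Setd8-LKO + TCPOBOP at Anxa2, from 36.5 to 51.6 at Tubb4b and from 21.8 to 41.4 at Stmn1. It went from 28.2 to 23.1 at Tubb2a and from 37.1 to 23.0 at Myo1e. Lower values were also found at other members that rose, from 23.7 to 13.8 at Anxa5, 26.7 to 15.7 at Myh14 and 31.3 to 26.3 at Tubb5. At S100a1 and S100a13, which fell, the values were 10.8 in WT and 10.9 in Setd8-LKO + TCPOBOP. The direction of this value thus did not always follow that of the RNA. The files give no replicate for these values.

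CTCF, which marks domain borders and some promoters, was found at 2 members in WT (4.17%), Myo5b and Tpm1, and at 29 in Setd8-LKO + TCPOBOP (60.4%), beside 5.12% and 38.8% of all listed genes. The CTCF list itself held 5838 peaks in WT and 20905 in Setd8-LKO + TCPOBOP. Smc3, a subunit of cohesin, was found at 9 members (18.8%) and at 31 (64.6%), beside 16.1% and 56.0% of all listed genes, with lists of 13045 and 21615 peaks. The study reports that most new CTCF sites lacked the canonical motif and were weaker and more spread out. It also reports lower affinity of Smc3 at new sites, and estimates that such new associations are probably unstable and without function. Whether this holds at the members was not tested. The highest CTCF fold enrichment at a member was at Myo15b, 118 in Setd8-LKO + TCPOBOP with no peak in WT. The Smc3 value at Myo15b went from 17.4 to 163. All 4 members that fell had a CTCF peak in Setd8-LKO + TCPOBOP and none in WT. Of all 1283 listed genes that fell and have a start, 35.6% had one in Setd8-LKO + TCPOBOP and 4.99% in WT. S100a1 and S100a13 share 1 CTCF peak, and their shared Smc3 peak was present in WT (12.5) and absent in Setd8-LKO + TCPOBOP. They were the only members with Smc3 in WT alone.

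ATAC-seq peaks, which mark open chromatin, were found at 18 members in WT (37.5%) and 14 in Setd8-LKO + TCPOBOP (29.2%), beside 41.8% and 35.2% of all listed genes. Tuba8 and Myo7b gained one, and 6 members, Ezr, Myl12b, S100a10, Tpm1, Tuba1a and Tubb2a, had one in WT alone although their counts rose. That is 17.1% of the 35 members that rose, beside 7.93% of all 1879 listed genes that rose and have a start. With peaks of −log10 p of at least 20, only 3 members that rose (8.57%) had one in WT alone, beside 7.61%. Lamin A/C islands, the domains next to the nuclear lamina, covered the start of 4 members in WT (8.33%) and 3 in Setd8-LKO + TCPOBOP (6.25%), beside 6.29% and 4.66% of all listed genes. The 3 are the processed pseudogenes Tubb2a-ps2, Tubb4b-ps1 and Tubb4b-ps2, and Map2 had an island in WT alone. H4K20me3 islands covered 3 and 2 starts (6.25% and 4.17%, beside 3.68% and 4.39%), Myo5b, Tubb4b-ps1 and, in WT alone, Tubb2a-ps2. Actg1, Actg-ps1, Vil1 and Anxa13 had no entry for any of the 6 assays although all 4 rose.

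**Figure D5:**
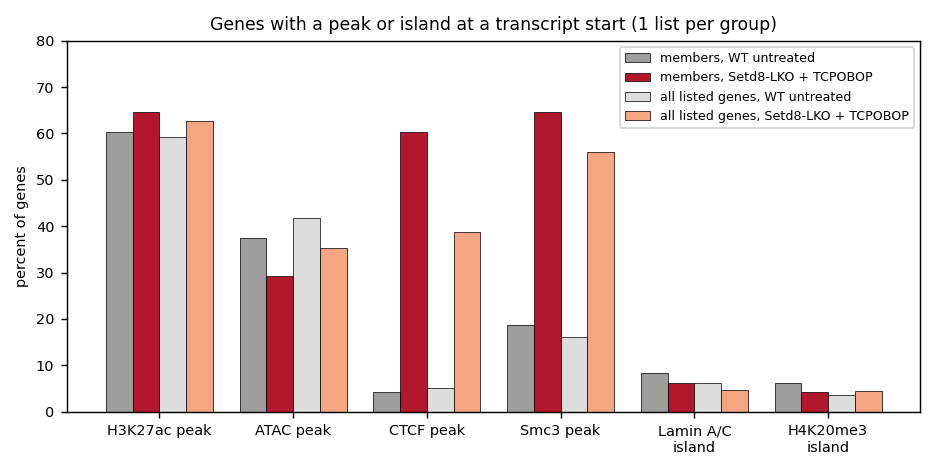
Bars give the percent of the 48 members and of all 4101 listed genes with a peak within 1000 bp of a transcript start, or with a start inside an island, from 1 list per group. Members and all listed genes have like shares for H3K27ac. CTCF in Setd8-LKO + TCPOBOP stands at 60.4% of members and 38.8% of listed genes.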

How the data were processed

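Deposited RNA-seq tables of mouse liver, and lists from ChIP-seq, CUT&Tag and ATAC-seq, were used. Read filtering by PRINSEQ, alignment to mm10 by HISAT2 and gene selection by metaseqR were done by the authors. The deposited tables hold raw counts and, as a score, counts normalized by the authors with 1 factor per library (rounded to whole numbers), for selected genes only. The authors' own fold changes, p-values and means in these tables were not used, nor were 114 columns of transformed values of the same libraries. For peaks, the authors' fold enrichment (a ratio) and −log10 p from MACS2 2.2.7.1 were used, and for islands the authors' SICER score. Whether counting used strand is not given in the sources used here.

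The quasi-likelihood test of edgeR 4.0.16 (R 4.3.3) was run on the raw counts of all listed genes that passed filterByExpr (minimum count 10), scaled by the authors' factors. Benjamini-Hochberg adjustment ran over the 55450 genes of the reference annotation, each unlisted gene entering as unchanged. A gene rose or fell where adjusted p was below 0.05 and the fitted log2 change was 1 or more either way. Standard errors come from the same fit. Because the authors selected the listed genes on these libraries, the tests describe listed genes and are no independent evidence. Single members were put to exact two-sided permutation tests of mean log2(normalized count + 1). In these exact permutation tests 37 members reached p = 0.00794, the smallest that 5 against 4 libraries allow. The groups did not overlap for 79.2% of members and for 84.8% of all 3900 listed genes. Reaching that smallest value therefore does not by itself set the members apart from the other listed genes. The study describes the RNA-seq libraries as biological replicates, 4 or 5 of them, with collection on the same date. Labels by themselves say only that they are separate samples, and p-values measure the spread between these. On simulated counts, 166 of 200 changed genes (83%) were found for Setd8-LKO + TCPOBOP among 3755 genes. For WT + TCPOBOP 171 (85.5%) were found among 689, and none was called in the wrong direction. All planted changes lay well above the fold threshold, in genes that were not low in counts, and every other gene was unchanged. The shares found therefore do not apply to changes near the threshold or to a list of mostly changed genes.

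Members, gene lists, named genes and tests were chosen with earlier results of these data known. Genes named with values were a fixed list, in each class the highest mean, the largest rise and the largest fall, every member listed for WT + TCPOBOP and every member lower in Setd8-LKO + TCPOBOP. Remaining members were added after their values were seen. Gene models and transcript starts are from GENCODE M21 (GRCm38, the same sequence as mm10), promoters from RefSeq. Shared words of 50 bases were counted over GENCODE transcripts. Alternatives were other scalings (TMM, DESeq2 size factors), other tests (DESeq2 1.42.0, limma 3.58.1), no filter and adjustment over listed genes alone. Further alternatives were the run of the headers as a term, the replicate number as a block and leaving out each library. For peaks they were a window of 2500 bp, −log10 p of at least 20, and the summit inside the window. Protein sequences were not analysed here. A member and a marker gene that enter the counts are not reported here individually and are left out of the plots by gene. The controls are labelled untreated. The study's text also names a vehicle, so injection may differ between groups.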

Additional observations from a re-analysis of the deposited data

Results flagged for a closer look

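In 6 of 99 groups of 4 or 5 libraries examined, 1 library stood apart from the others of its group by Dixon's criterion, where chance gives about 1 in 20. Acta1 had 249 normalized counts in WT replicate 5 (14 to 20 in the others) and 21 in Setd8-LKO replicate 1 (13 to 14 in the others). In WT replicate 4, S100a8 was at 44 (2 to 13 in the others), Tubb4a at 12 (1 to 4) and Myo1e at 937 (1209 to 1276). Myl12b was at 1119 in WT replicate 2 (929 to 980).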

How the results depend on the processing

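Of 782 alternative values of the members' log2 fold changes for Setd8-LKO + TCPOBOP against WT, 720 kept direction and side of the threshold, 48 lost the call, 14 gained it and 0 turned. Leaving out 1 library gave 34 to 41 changed members (30 to 37 up) and a median of 1.40 to 1.70. TMM factors gave 40 changed members (36 up) and a median of 1.53. DESeq2 size factors over the listed genes gave 19 changed members (15 up) and a median of 0.70. The DESeq2 factors gave 9, 2 and 0 changed genes on the actin, microtubule and nuclear envelope lists, against 16, 6 and 1. Of all genes tested 2230 of 3608 changed with these factors, against 3170 of 3726. The actin, microtubule and nuclear envelope lists ran from 13 to 16, 5 to 6 and 1 to 1 with 1 library left out. Adjustment over the listed genes alone gave 2 nuclear envelope genes. For WT + TCPOBOP, 2 members changed with the authors' factors, and 0 with TMM or DESeq2 factors, whose medians were -0.023 and 0.061. Tagln2 was then at -0.16 (TMM) and -0.076 (DESeq2 factors), and Vill at -0.023 (TMM). Limma and the run term each left 1 member, and leaving out 1 library gave 0 to 3 members, with medians of 1.13 to 1.33. On the actin list, which had 1 changed gene there, both scalings gave 0 and adjustment over listed genes 2, with 1 to 2 over the left-out libraries. The microtubule list, with 1, had 0 under both scalings and 0 to 1 over the left-out libraries. TMM and DESeq2 factors are estimated here on genes selected as changed. The test of Setd8-LKO + TCPOBOP against WT + TCPOBOP found 1 to 2 members with 1 library left out, and its alternatives were chosen after seeing the data. CTCF in WT was at 5 members within 2500 bp, against 2. Thresholds on −log10 p and summits could not be applied to islands, and no other promoter window was held for the sequence elements. Where a value moved, the cause was not tested, beyond the smaller number of libraries in fits that leave 1 out.

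Replicate numbers did not pair the libraries. The deviations of same-numbered libraries correlated at -0.14 to 0.07 for Setd8-LKO + TCPOBOP and -0.41 to 0.22 for WT + TCPOBOP. With the replicate block 30 members changed for Setd8-LKO + TCPOBOP (26 up), 3 genes of the microtubule list, 0 members and 0 genes of the actin and microtubule lists for WT + TCPOBOP, and 1 member between the treated groups, where Tagln2 had an adjusted p of 0.0545.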
